A study of Mus musculus with 96 samples.

Results

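The cells described here are the alpha-globin-rich erythroid cells of a single-cell RNA-seq series from mouse bone marrow, divided by how much ribosomal protein transcript they held. A cell was taken when it had at least 1000 genes at 1 RPKM or more (reads scaled to transcript length in kilobases and to 1000000 mapped reads) and Hba-a1, an adult alpha-globin gene, at 330000 RPKM or more. A gene at 1 RPKM or more is called listed in that cell. Of 96 cells, 35 met both conditions. They were chosen by these measured values, and divided by measured values too. A score was then computed for each cell as the mean log2(RPKM + 1) of 12 ribosomal protein genes: Rpl3, Rpl4, Rpl6, Rpl7, Rpl8, Rpl9, Rpl13, Rplp0, Rps2, Rps14, Rps18 and Rps23. The score was 6 or more in 13 cells, called RP-high, below 3 in 12 cells, called RP-low, and in between in 10 cells, called intermediate. All cells share the labels erythroid precursor, strain C57BL/6 and genotype Rpl11 +/lox, and their titles call them Rpl11 heterozygous. The Rpl11 protein sits in the large ribosomal subunit. The series follows cells between the burst-forming unit-erythroid, a progenitor committed to red cells, and the basophilic erythroblast, a dividing precursor. The labels name no Cre driver, no age and no animal, and no wild-type cells were analysed here. With no animal named, the cells count as 1 sample, so no test was made and no p-value is given, and SDs are over cells.

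Ribosomal proteins make up the core of the cytoplasmic ribosome together with ribosomal RNA. Their mRNAs belong to the TOP class, which start with a tract of pyrimidines and are translated together when the growth kinase mTOR is active. Red cell precursors build many ribosomes early, then fill with hemoglobin, stop dividing and finally clear ribosomes and mitochondria. Loss of 1 copy of a ribosomal protein gene causes Diamond-Blackfan anemia in humans, a failure of red cell production.

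The start regions of several ribosomal protein genes are shown because every ribosomal protein gene outside the score was higher in RP-high cells. Each is 30 bases of the gene's strand, 5′ to 3′, taken from RefSeq on build GRCm38.p6, with the longest unbroken run of C or T in capitals. The deposited values were made on mm9, so these positions were not used to read any value.
Rps18, chr17:33955648-33955677, minus strand: gtcacttccgCTCTCTCTTCCacaggaggc
Rps27, chr3:90213632-90213661, minus strand: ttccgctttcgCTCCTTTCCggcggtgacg
Rpl19, chr11:98026944-98026973, plus strand: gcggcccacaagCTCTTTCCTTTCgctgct
Rpl39, chrX:37085173-37085202, minus strand: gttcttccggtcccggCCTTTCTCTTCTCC
Rpl11, chr4:136053358-136053387, minus strand: ccggaagTCTCCCTCTCTCTTCCTgttctc
Rpl4, chr9:64173405-64173434, plus strand: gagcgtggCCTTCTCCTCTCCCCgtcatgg
For contrast, the starts of Alas2, which did not differ between the groups by the size rule, and of the cell cycle inhibitor gene Cdkn2d, which was lower in RP-high cells, held no such run within 50 bases on either side.
Alas2, chrX:150547402-150547431, plus strand: agcaggaggctgggatgaaagctgcttccc
Cdkn2d, chr9:21291195-21291224, minus strand: agggtgagtctggggagacccggcccaagg
A run of at least 8 unbroken C or T letters on the gene's strand, searched from 50 bases before to 50 bases after the annotated start, was present in 42 of 50 matched ribosomal protein genes outside the score (84.0%) and in 7 of 8 matched score genes. It was present in 33.4% of the 1465 tested genes with a start sequence and in 39.3% of all 27025 genes of the table. In Rps18 and Rps27 the run began at -2 from the annotated start, whereas in the other 4 shown it lay 14 to 37 bases after it. Rpsa and Rps28, with differences of 6.71 and 6.66, had no run of 8, while Lmna and Ppp1r15a, lower in RP-high cells, had one of 8. Annotated starts can lie some bases from the true start, so a run is a description of these letters only.

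The 35 cells all looked erythroid. All 12 erythroblast markers, among them Klf1, Alas2 and Tfrc, were at 1 RPKM or more in at least 50% of cells in both the RP-high and the RP-low group. None of the 35 cells met a list of markers of another lineage (neutrophil, monocyte or macrophage, megakaryocyte, mast cell or basophil, B cell, T or NK cell). All measured markers of mast cells or basophils, B cells and T or NK cells were at 0 in every one of the 35 cells. The summed neutrophil markers reached at most 12.9 RPKM in RP-high cells and 0.11 RPKM in RP-low cells. Monocyte or macrophage markers summed to at most 6.19 and 127.9 RPKM, and megakaryocyte markers to at most 200.1 and 3.09 RPKM. Early progenitor markers summed to at most 8.54 and 8.98 RPKM. At the edges of the rule, cell 29 had a score of 2.77 and cell 91 a score of 3.32, while cell 30 had 5.95 and cell 19 had 6.11. The lowest Hba-a1 kept was 340361 RPKM and the highest not kept, among cells with enough genes, was 321044 RPKM. A further 7 cells passed the Hba-a1 level with fewer than 1000 genes, the nearest with 897.

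The 2 ends differed at the median in the number of genes they listed, while their medians of estimated depth lay close. The ranges overlapped for both measures, and depth ran wider in RP-low cells. RP-high cells had 1239 to 2677 genes at 1 RPKM or more (median 1928), intermediate cells 1162 to 2003 (median 1535) and RP-low cells 1003 to 1670 (median 1170). Estimated depth, in units of 1000 reads, was 8006 at the median in RP-high cells (3543 to 9005) and 7583 in RP-low cells (1529 to 11657). Over the 35 cells the score had a Spearman correlation of 0.80 with the number of genes, 0.79 with the number of genes outside the ribosomal protein lists, and 0.070 with depth. These correlations are a description only, as the cells count as 1 sample. Hba-a1 itself ran from 340361 to 511312 RPKM in RP-high cells (median 420469) and from 364620 to 570277 RPKM in RP-low cells (median 486366), with wide overlap. It made up 29.4% of estimated reads at the median in RP-high and 34.0% in RP-low cells. Because gene number moves with the score, the main gene lists below are also given for the 3 RP-high and 4 RP-low cells whose gene number lay in the range that both groups shared, 1239 to 1670 genes. These cells are called cells of like gene number, and a list's median over them covers its tested members. The part of gene number in the other differences was not tested beyond that.

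**Figure D1:**
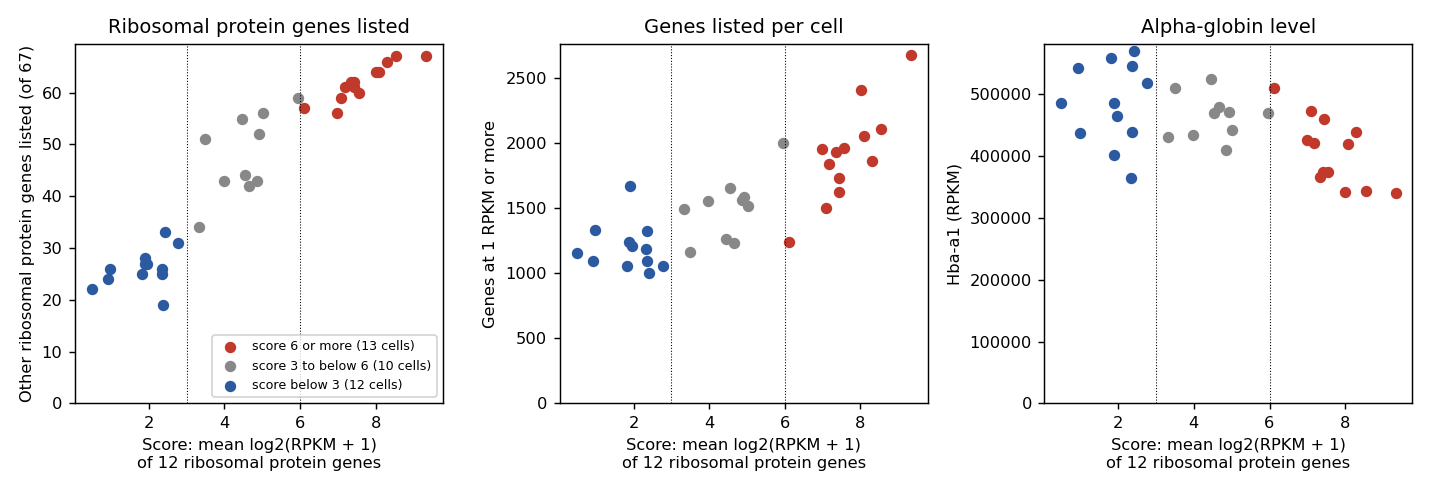
The plots show, for each of the 35 cells, the number of 67 other ribosomal protein genes listed, the number of genes listed and the Hba-a1 level in RPKM (y axes) against the score (x axis), with dotted lines at the score limits of 3 and 6. The 13 RP-high cells list 56 to 67 of the other ribosomal protein genes and the 12 RP-low cells 19 to 33.

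The score genes chose the groups, so their levels are a description. Rplp0, a protein of the ribosomal stalk, was at 17.2 to 858.6 RPKM in RP-high cells (median 311), at 25.9 to 350.0 RPKM in intermediate cells (median 150.5) and at 0 to 55.9 RPKM in RP-low cells (median 0). All RP-high and intermediate cells listed it, against 3 of 12 RP-low cells. Rps18, of the small subunit, ran from 71.5 to 1606 RPKM in RP-high cells (median 291), from 0 to 103 RPKM in intermediate cells and from 0 to 555 RPKM in RP-low cells, where its median was 0. Its intermediate median of 6.13 RPKM lay close to the RP-low one, unlike that of Rplp0. Only 1 to 6 of the 12 score genes were at 1 RPKM or more in a RP-low cell, and 11 or 12 in a RP-high cell.

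Every other ribosomal protein gene followed the score. Genes were compared by the difference of mean log2(RPKM + 1), RP-high minus RP-low, a scale on which genes at low levels appear less different than they are. Calls of higher or lower needed a difference of at least 1 in size, with the same sign inside run code SCP-1706080. Run code is a name given here to a part of each cell's description, and what that part stands for was not established. By the descriptions this code had 8 RP-high and 7 RP-low cells, and no other had 3 of both. The titles and column headers give SCP-1706080 for all 96 cells, so the labels disagree on the run code, and calls by size alone are the ones that do not use it. Of 2025 genes listed in at least 25% of the 25 cells, 48.8% were called higher in RP-high cells and 5.88% lower (49.4% and 6.27% by size alone), with a median difference of 0.97. A gene can pass this filter through RP-high cells alone, so the medians of gene lists given below are over all measured members. Without the filter, over 6690 genes listed in at least 1 of the 25 cells, the median difference was 0.36. That value, not 0.97, is the nearer background for those list medians. Against the calls over tested genes, 67 of 67 other ribosomal protein genes were called higher, with a median of 4.50 and a range of 1.62 to 7.37. Their median was 4.16 for the 39 genes of the large subunit and 4.91 for the 28 genes of the small subunit. Within run code SCP-1706080 alone the median over the 67 genes was 4.13, and 0.92 over all tested genes. Averaged over the 67 genes, the mean log2 level was 6.59 ± 0.93 (SD, 13 cells) in RP-high cells, 4.39 ± 0.80 (10 cells) in intermediate cells and 2.08 ± 0.40 (12 cells) in RP-low cells. Together with the score genes they took 0.79% to 3.31% of estimated reads in RP-high cells (median 1.15%) and 0.061% to 0.62% in RP-low cells (median 0.14%).

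Rps27, a small-subunit protein with a zinc finger, had the largest difference of the 67 genes. It was at 118.5 to 946 RPKM in RP-high cells (median 319), at 0 to 323 RPKM in intermediate cells (median 160) and at 0 to 129 RPKM in RP-low cells (median 0), a difference of 7.37. It was listed in 13 of 13 RP-high cells (exact Clopper-Pearson interval at 95%, 75.3% to 100%) and in 2 of 12 RP-low cells (16.7%, 2.09% to 48.4%). Its highest RP-low cell lay just above its lowest RP-high cell. Such intervals, here and below, treat cells as independent, which cannot be checked with no animal named. The groups were also cut on the level of related genes, so the intervals do not compare the groups. Rps27rt, a near-identical copy, had nearly the same values (7.38), so these 2 genes were not told apart. Rpl32, of the large subunit, ran from 48.9 to 1150 RPKM in RP-high cells (median 196) and from 0 to 169 RPKM in RP-low cells, with a difference of 6.85. Rpsa, which doubles as a laminin-binding protein, was at 45.7 to 656 RPKM in RP-high cells and at 0 to 24.0 RPKM in RP-low cells, a difference of 6.71. Its groups did not overlap, nor did those of Rps9 (116.6 to 478 against 0 to 45.1 RPKM), whereas those of the other 65 genes did. Over all tested genes, 0.494% had RP-high cells wholly above RP-low cells.

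Rpl11, the gene named in the genotype, followed the same order with lower levels. It was at 0 to 289 RPKM in RP-high cells (median 60.3), 0 to 109 RPKM in intermediate cells (median 2.57) and 0 to 34.8 RPKM in RP-low cells (median 0). It was listed in 11 of 13 RP-high cells (84.6%, 54.6% to 98.1%), 6 of 10 intermediate cells (60.0%, 26.2% to 87.8%) and 1 of 12 RP-low cells (8.33%, 0.21% to 38.5%), and its difference was 4.60. Rpl5, whose product joins Rpl11 in the particle that inhibits the p53 regulator Mdm2, differed by 3.79, and Rps19, the gene most often altered in Diamond-Blackfan anemia, by 5.77. Rps19 stayed measurable in more RP-low cells, with 7 of 12 listing it at a median of 16.9 RPKM over the group, against 470 RPKM in RP-high cells.

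Some ribosomal protein transcripts were still listed in most RP-low cells. Rpl41, which encodes a very short protein, was listed in all 12 of them, at 5.70 to 656.5 RPKM (median 104), against 517 to 2401 RPKM in RP-high cells (median 1129), and differed by 3.56. Of the 67 genes, 38 had an RP-low median of 0. Rpl35a had the smallest difference, 1.62, with 8 of 12 RP-low cells listing it. Where a gene was listed, its level was lower too: over only those cells that listed the gene, the median difference was 1.94 for the 67 genes and 0.30 for all tested genes.

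**Figure D2:**
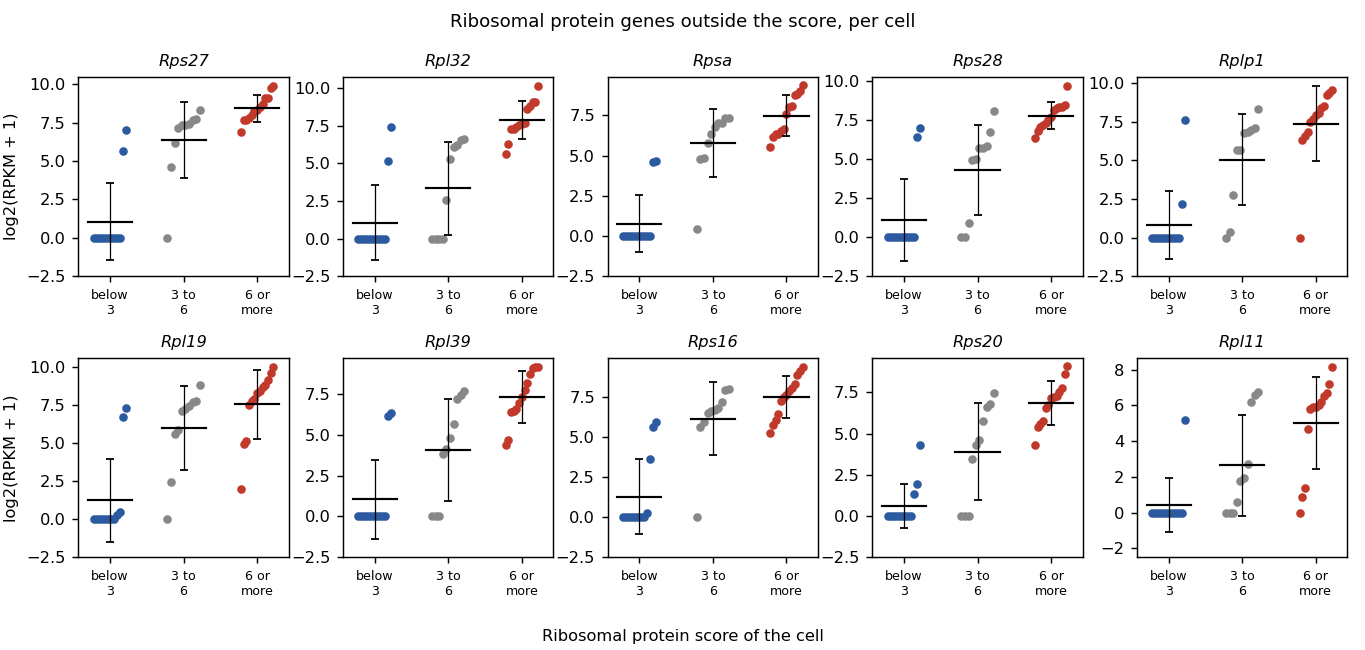
Each panel plots log2(RPKM + 1) of a ribosomal protein gene outside the score in every cell, for RP-low (score below 3), intermediate and RP-high (6 or more) cells. Bars are means with SDs over cells, and in all 10 genes the RP-low mean is lowest, with most RP-low cells at 0.

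Among cells of like gene number the ribosomal protein difference was nearly as large, while the median over all tested genes was 0. The 3 RP-high cells in the shared range listed 57, 59 and 61 of the 67 genes and the 4 RP-low cells 26, 27, 28 and 26. Rps27 differed by 6.83 and Rpsa by 5.63 between them, and Rpl32 was listed in 3 of 3 RP-high cells and 0 of 4 RP-low cells. The median was 3.54 for the large and 4.80 for the small subunit. Of the 67 genes, 59 were called higher and 1, Rpl14 (-1.04), lower. Of all 2025 tested genes, 507 were called higher and 544 lower between the same cells. Transcript length also moved with the difference, and its part was not tested. Outside the ribosomal proteins, 345 genes of less than 1000 bases had a median difference of 1.78 and 341 genes of 4000 bases or more had 0.42. The 49 ribosomal protein genes of less than 1000 bases had a median of 4.72. Among the 3 and 4 cells of like gene number these short genes stood at 0.70 outside the ribosomal proteins and 4.79 within.

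Other genes of protein synthesis were also higher in RP-high cells. Of 22 translation factors and other TOP mRNAs, 17 were tested. Of these 13 (76.5%) were called higher and none lower, against 48.8% and 5.88% of all tested genes. The median over all 22 was 2.01. Gnb2l1, now named Rack1 and a scaffold on the small subunit, was at 3.62 to 323 RPKM in RP-high cells (median 81.6) and was listed in 1 of 12 RP-low cells, a difference of 5.51. Eef1a1, which brings aminoacyl-tRNA to the ribosome, had a median of 242.5 RPKM in RP-high and 1.34 RPKM in RP-low cells and differed by 4.33. Between cells of like gene number the list's median was 1.502, with 8 genes higher and none lower. Of all 2025 tested genes, 507 were higher and 544 lower there. Nucleolar genes that assemble ribosomes were scarce in both groups: 4 of 25 passed the filter on low values, and the median over all 25 was 0. Among these were Bysl, a small-subunit assembly factor (2.74), and nucleolin, Ncl (1.36), and the RNA polymerase I factor Ubtf (1.32), all called higher, while Npm1, nucleophosmin, stood at 0.36. Of 8 measured host genes of small nucleolar RNAs, 2 were tested, and Gas5, itself a TOP transcript, differed by 1.17 and Snhg5 by -0.03.

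Mitochondrial genes moved with the score as well. Of 51 genes of the respiratory chain and ATP synthase, 50 were tested. Of these 46 (92.0%) were called higher and none lower, against 48.8% and 5.88% of all tested genes. The median over all 51 was 3.38. Ndufb8, a subunit of complex I, was at 86.9 to 708 RPKM in RP-high cells (median 243) and at 0 to 157 RPKM in RP-low cells (median 0), a difference of 6.19, and only 3 of 12 RP-low cells listed it. Ndufa1, also of complex I, had medians of 226 and 0 RPKM and differed by 6.57. The further complex I genes, Ndufb2 and Ndufc1, were each listed in 12 of 13 RP-high cells and at 0 in all 12 RP-low cells (exact Clopper-Pearson upper bound at 95%, 26.5%). The genes not called were Cox5a, Atp5b, Cycs and Ndufb6. Over all 36 mitochondrial ribosomal protein genes the median was 1.38. Only 15 of them passed the filter, some through RP-high cells alone: Mrpl33 (5.31) was listed in 10 of 13 RP-high cells and Mrps14 (4.75) in 12 of 13, and neither was listed in a RP-low cell. Between cells of like gene number the median was 1.83 for the respiratory chain, with 35 genes higher and 7 lower. It was 2.48 for the tested genes of the mitochondrial ribosome. Of all 2025 tested genes, 507 were higher and 544 lower there. The pyrimidine run was present in 31.0% of the matched respiratory chain genes and 28.6% of the matched mitochondrial ribosomal protein genes, near the 33.4% over tested genes.

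**Figure D3:**
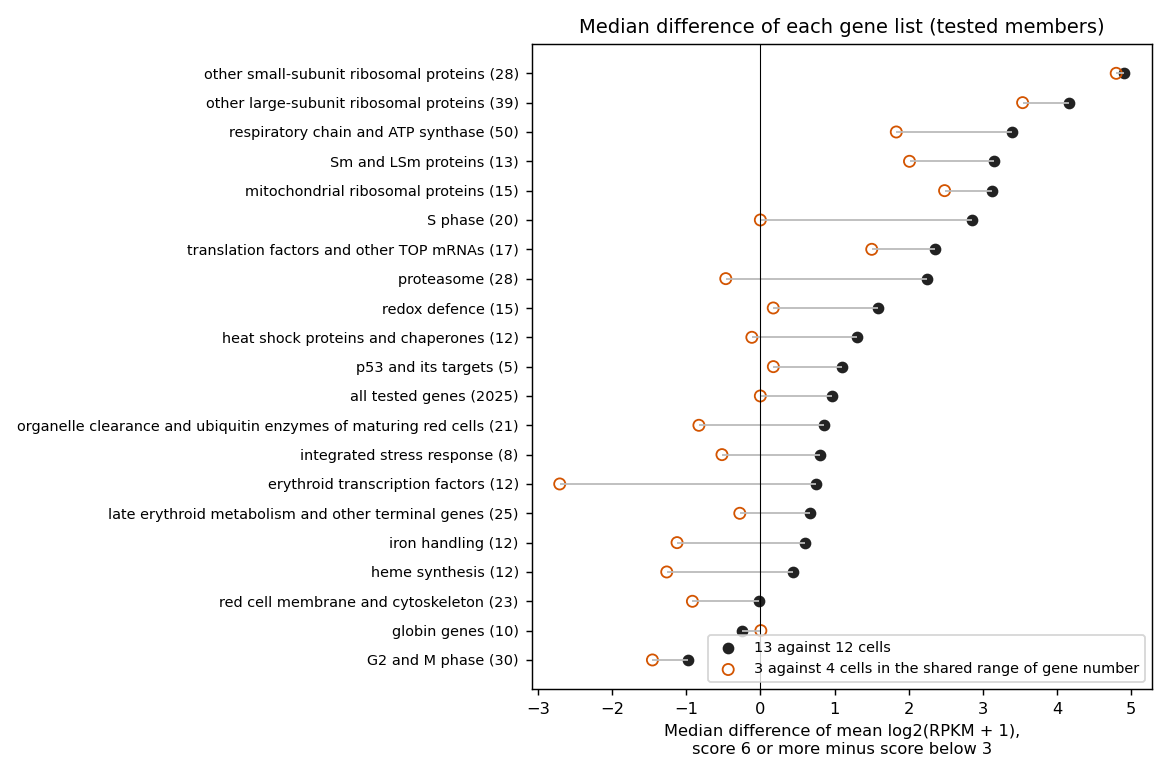
For each gene list (tested members in parentheses), the filled point gives the median difference of mean log2(RPKM + 1), RP-high minus RP-low, over 13 and 12 cells, and the open point the same over the 3 and 4 cells in the shared range of gene number. Both ribosomal protein lists stay above 3 in either set of cells, while the median of all tested genes moves from 0.97 to 0.

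Of 12 tested heme synthesis genes 5 were called over all cells, and of 10 tested globin genes 2. Over all tested genes, 48.8% were called higher and 5.88% lower. Hbb-b1, an adult beta-globin gene, was at 194320 to 349810 RPKM in RP-high cells and at 159160 to 372490 RPKM in RP-low cells, and differed by -0.29. Alas2, the committed enzyme of heme synthesis in red cells, was at 116 to 1451 RPKM in RP-high cells (median 615), 6.29 to 2123 RPKM in intermediate cells (median 638) and 40.1 to 1701 RPKM in RP-low cells (median 740). All 35 cells listed it and the groups overlapped, with a difference of 0.26 that was -1.73 between cells of like gene number. Fech, which inserts iron into the ring, differed by 0.27 and Urod by 0.13. Of 16 heme genes 12 were tested, 4 (33.3%) were called higher and 1 lower, and the median over all 16 was 0.44. Between cells of like gene number the median of the tested heme genes was -1.26. There 3 were higher and 6 lower, against 507 and 544 of all 2025 tested genes. Tmem14c, which carries porphyrin precursors into the mitochondrial matrix, had the largest difference of the list. It was at 506 to 1757 RPKM in RP-high cells (median 1054), 0 to 454 RPKM in intermediate cells (median 251) and 0 to 186 RPKM in RP-low cells (median 0.21), with no overlap between RP-high and either other group and a difference of 7.51. Its difference was 7.65 between cells of like gene number. Uros, another enzyme of the pathway, was also higher (3.55). Ppox, which makes protoporphyrin, was lower: its median was 44.6 RPKM in RP-high cells and 100 RPKM in RP-low cells, and 7 of 13 against 11 of 12 cells listed it, a difference of -2.34 that was -4.42 between cells of like gene number. Within the 10 globin genes tested the median was -0.25, and 0.0065 between cells of like gene number. Hbq1a, a theta-globin gene, was called higher (1.79), though its medians were 103.5 and 106.2 RPKM, and the embryonic Hba-x lower (-1.28), with 2.59 to 1784 RPKM against 0 to 1960 RPKM.

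Genes of iron, membrane and organelle clearance were called higher in 25.0%, 8.70% and 38.1% of tested members, against 48.8% of all tested genes. Fth1, the heavy ferritin chain, was at 2344 to 6860 RPKM in RP-high cells (median 4390) and at 58.1 to 3575 RPKM in RP-low cells (median 1582), a difference of 1.67. Tfrc, the transferrin receptor, differed by 2.08, while Ncoa4, which delivers ferritin for breakdown, was lower (-1.37), with 6 of 13 and 8 of 12 cells listing it. Of 18 iron genes 12 were tested, 3 were higher and 1 lower, and the median over all 18 was 0.41. Among 25 genes of the red cell membrane and cytoskeleton 23 were tested and 3 called: Mpp1 (1.92) and Gypc (1.33) higher and the water channel Aqp1 (-1.09) lower. Bnip3l, the receptor that sends mitochondria to autophagy, had medians of 45.9, 43.5 and 52.0 RPKM in RP-high, intermediate and RP-low cells. It was listed in 11 of 13, 9 of 10 and 8 of 12 cells, and its difference of 1.01 only just met the size rule. Of 32 clearance and ubiquitin genes 21 were tested and 8 called higher, and the median over all 32 was 0.26. The count of 8 was 5 without cell 9 or cell 29 and 3 without cell 94. Between cells of like gene number the medians were -1.12 for iron and -0.83 for clearance and ubiquitin genes, both turned in sign, and -0.92 for the membrane, with Bnip3l at -2.60.

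Of 25 S phase genes 20 were tested and 17 (85.0%) called higher in RP-high cells, against 48.8% of all tested genes. The median over all 25 was 2.84. Pcna, the replication clamp, was at 13.9 to 1146 RPKM in RP-high cells (median 628), 34.2 to 618 RPKM in intermediate cells (median 304) and 0 to 119 RPKM in RP-low cells (median 0). It was listed in all 23 RP-high and intermediate cells and in 3 of 12 RP-low cells (25.0%, 5.49% to 57.2%), a difference of 6.69. Slbp, the binding protein of histone mRNA, differed by 4.98 and the helicase gene Mcm7 by 4.23. Of 31 genes of G2 and M phase 30 were tested, 12 were called lower in RP-high cells and 2 higher, against 5.88% called lower over all tested genes, and the median over all 31 was -0.93. The split was not stable. It was 6 lower and 4 higher without cell 9, 7 and 5 without cell 65, and 7 and 3 without cell 32. Within run code SCP-1706080 alone the split was 7 and 6. It was 4 and 4 with score limits of 5 and 4, and 2 and 4 with transcripts summed. Kif11, a spindle motor, had medians of 6.46 and 41.8 RPKM in RP-high and RP-low cells and differed by -1.64, and Cdca8, a subunit of the chromosomal passenger complex, by -1.58. Aurkb, Plk1, Mki67 and Tpx2 were also lower, and Cenpa (1.87) and Prc1 (1.98) higher. In the shared range of gene number the S phase median was 0, with 5 higher and 3 lower. The G2 and M median there was -1.45, with 3 higher and 17 lower. Of all 2025 tested genes, 507 were called higher and 544 lower in that range.

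Of 12 G1 regulators 3 passed the filter. Ccnd3, the cyclin D of late erythroid divisions, was at 0 to 1308 RPKM in RP-high cells (median 184.5) and 0 to 223 RPKM in RP-low cells (median 0), a difference of 5.32. Cdkn2d, whose product blocks the G1 kinases CDK4 and CDK6, ran from 0 to 520 RPKM in RP-high cells (median 98.9), from 0 to 602 RPKM in intermediate cells (median 205) and from 0 to 1370 RPKM in RP-low cells (median 208). It was listed in 8 of 13 RP-high and 10 of 12 RP-low cells, with a difference of -2.08 that was -5.07 in the shared range of gene number. Ccnd3 differed by 5.11 there.

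**Figure D4:**
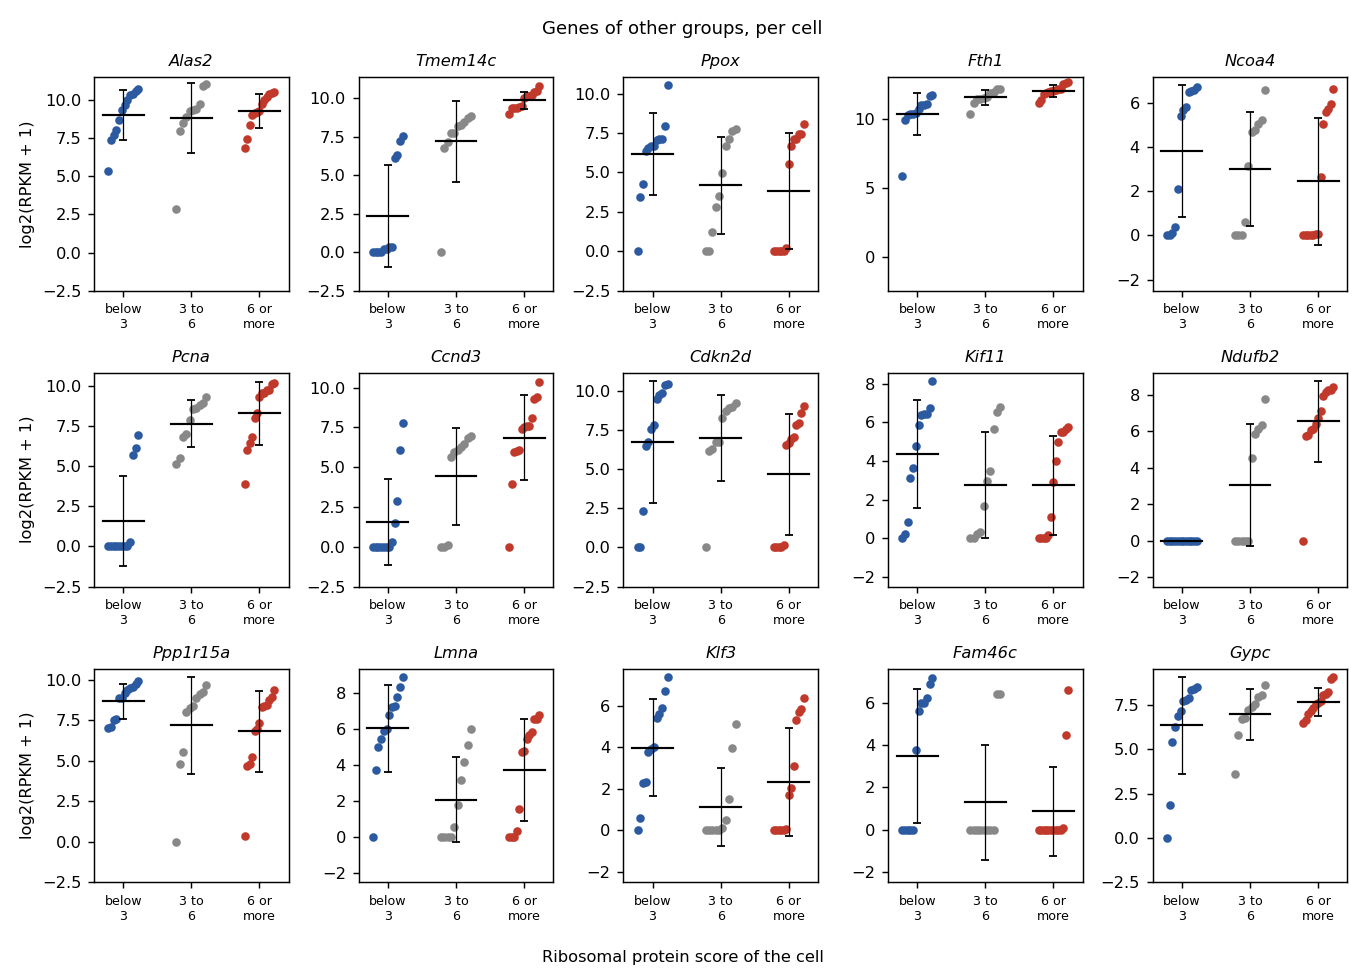
Each panel plots log2(RPKM + 1) of a gene outside the ribosomal proteins in every cell, for RP-low, intermediate and RP-high cells, with means and SDs over cells. Tmem14c, Pcna, Ccnd3 and Ndufb2 are at or near 0 in most RP-low cells, while Alas2 is level and Ppp1r15a, Lmna, Klf3 and Fam46c have higher means in RP-low cells.

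The 119 genes called lower in RP-high cells included Ppp1r15a of the stress response and the erythroid factor Klf3. Ppp1r15a, which returns eIF2 to its active form after stress, was at 0.27 to 668.5 RPKM in RP-high cells (median 159) and at 128 to 989 RPKM in RP-low cells (median 531.5), a difference of -1.88. All 12 RP-low cells listed it, and in the shared range of gene number its difference was -4.55. In the same list of 18 stress response genes 8 were tested, and 3 (37.5%) were called higher, against 48.8% of all tested genes. The median over all 18 was 0.070. Eif2s1, which encodes the alpha subunit of eIF2, was higher by 3.96, as were Asns (2.41) and Mthfd2 (2.33), whereas Atf4 stood at 0.82. Klf3, a repressor among the erythroid factors, was lower (-1.66), with 7 of 13 and 10 of 12 cells listing it, and E2f4 (2.05), Gfi1b (1.55) and Zfpm1 (1.21) were higher. Gata1 was also higher (1.04), while Klf1 differed by 0.39. Between cells of like gene number the list's median was -2.70, with E2f4 at -2.55, Gfi1b at -1.15 and Zfpm1 at -1.83. Of 21 factor genes 12 were tested, 4 (33.3%) higher and 2 lower, against 48.8% and 5.88% of all tested genes. The median over all 21 was 0.23.

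Fam46c, a poly(A) polymerase gene of maturing erythroblasts, was listed in 2 of 13 RP-high cells and 7 of 12 RP-low cells, a difference of -2.62. Lmna, the nuclear lamin A gene, had medians of 26.5 and 84.5 RPKM and differed by -2.32. Other genes with the largest differences in this direction were Lmf2 (-2.70), Cep70 (-2.61), Ensa (-2.59) and the splicing kinase gene Clk1 (-2.54). They were listed in 1 to 4 of the 13 RP-high cells and in 6 to 8 of the 12 RP-low cells. Bpgm, which makes the 2,3-bisphosphoglycerate of red cells, differed by -1.92. No gene had RP-low cells wholly above RP-high cells.

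Proteasome and splicing genes were called higher in 82.1% and 84.6% of tested members, against 48.8% of all tested genes, and redox defence genes in 53.3%. Of 30 proteasome genes 28 were tested, 23 were higher and 1, Psma7 (-1.66), lower. The median over all 30 was 2.14, and that of the tested genes was -0.47 between cells of like gene number. Of 19 Sm and LSm genes of the splicing machinery 13 were tested and 11 were higher. The median over all 19 was 2.84, that of the tested genes was 2.01 between cells of like gene number, and Snrpe had medians of 406 and 0 RPKM (6.17). Of 24 redox defence genes 15 were tested, 8 higher and 1 lower, with a median over all 24 of 0.64. Between cells of like gene number 7 were higher and 5 lower, against 507 and 544 of all 2025 tested genes. Prdx3, the mitochondrial peroxiredoxin, differed by 5.82 and Prdx1 by 4.48, whereas Prdx2, the abundant red cell peroxiredoxin, was at 2675 to 6376 RPKM and 1243 to 4704 RPKM and differed by 0.73. Car1, carbonic anhydrase 1, was listed in 11 of 13 RP-high cells and 1 of 12 RP-low cells and differed by 6.83, while Car2 differed by 0.67. Over all 25 heat shock and chaperone genes the median was 0.13. Of the 12 tested 8 (66.7%) were higher, against 48.8% of all tested genes. The median of the 12 was -0.11 between cells of like gene number. Hspa8 differed by 1.99 over all cells and by -4.49 in the shared range.

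In the p53 list 5 of 22 genes passed the filter, and the median over all 22 was 0.085. Rps27l, a p53 target and a paralog of Rps27, was at 39.2 to 648 RPKM in RP-high cells and at 0 to 204 RPKM in RP-low cells, with a difference of 5.58 that was 6.33 in the shared range. Gadd45a (2.59) and Bax (1.10, with a median of 0 RPKM in both groups) were higher and Btg2 stood at 0.24. Trp53, Mdm2 and Cdkn1a were listed in 4, 1 and 1 of 13 RP-high cells and in 0, 2 and 0 of 12 RP-low cells, too few to pass the filter. Malat1, a nuclear RNA, was at 74.4 to 332 RPKM in RP-high cells and 37.5 to 2357 RPKM in RP-low cells, with a difference of -0.21, and Gapdh, often used as a reference gene, was listed in 6 of 13 and 2 of 12 cells.

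Intermediate cells lay between the ends for ribosomal proteins and S phase genes but not for every group. For the 67 ribosomal protein genes the median step was 2.33 from RP-low to intermediate cells and 2.25 from intermediate to RP-high cells. S phase genes stepped by 1.67 and 1.35 and respiratory chain genes by 2.21 and 1.37. Genes of G2 and M phase stepped by -1.13 and then 0.59, so that intermediate cells had the lowest list mean, 4.30 against 5.14 in RP-low and 4.57 in RP-high cells. Membrane genes were also lowest in intermediate cells, with a list mean of 4.38 against 4.76 and 4.78.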

How the data were processed

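Single cells were isolated on the Fluidigm C1 and made into SMART-Seq cDNA and Nextera XT libraries, per the labels' protocols. The aligner TopHat2 (2.0.9) and genome mm9 are named in the submitters' processing notes, and the counting tool is not given in sources used here. The deposited RPKM values were made by the authors for 34899 RefSeq transcripts of 24321 symbols, and each symbol took its highest transcript in each cell. Values were analysed in Python 3.11.15 with pandas 2.3.3 as log2(RPKM + 1). RPKM from amplified reads without molecular identifiers are relative within a cell. Intervals on shares of cells cover counting error only, treat cells as independent and do not compare the groups. Depth was estimated from the steps between low values, with GENCODE transcript lengths for 97.6% of transcripts; at the median cell 57.7% of low values fell within 0.06 of a whole number, so it is approximate. Doublets were not searched for.

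Genes named are the score genes, Hba-a1, Rpl11, Alas2, Bnip3l, the 4 tested members of each list with the largest difference, and the 15 largest called differences in each direction; further list members are named where a sentence needed them, after their values were seen. The members and gene lists were chosen with earlier results of these data known. A marker list was met with at least 3 and at least 50% of its markers at 10 RPKM or more. The calling step was tried on simulated data, with each gene drawn independently and at the same detection rate in both groups. Those data had no built-in group difference in gene number, so they do not test calls that move with it. Alternatives changed the pseudocount, filter, transcript choice, scaling, cell limits, score genes and average. Results that need items withheld for evaluation are not reported here.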

Additional observations from a re-analysis of the deposited data

How the results depend on the processing

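All cells carry 1 label and no animals are named, so depth, capture and group cannot be told apart beyond the values given, and the 3 and 4 cells of the shared gene range are few. No paired analysis was possible because all cells belong to 1 group. The limit of 1500 genes left 1 RP-low cell and that of 2000 genes left 0, so neither was run. Under the other 17 alternatives the median of the 67 ribosomal protein genes stayed between 2.63 and 6.32. Both ends came from a changed pseudocount, which changes the scale. Some alternatives could not change this median: the gene filters, calls by size alone, and removal of cells of other lineages, which removed no cell.

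It was 4.50 as reported, 6.32 with a pseudocount of 0.1, 2.63 with 10, 5.33 with transcripts summed, 5.31 with globin genes removed and cells rescaled, and 6.18 with medians over cells. Genes called higher numbered 988 as reported, 569 with a pseudocount of 10, 514 with listing in at least 50% of cells required, 1562 with transcripts summed (22 RP-high cells) and 597 in the shared range of gene number, where the filter was applied anew to 2207 genes. Without a filter 1445 of 6690 genes were called higher. Genes called lower numbered 119 as reported, 187 and 29 with pseudocounts of 0.1 and 10, 61 with listing in at least 50% of cells, 68 with transcripts summed, 69 with cells rescaled to 1000000, 256 with globin removed, 703 in the shared range, 208 with a higher Hba-a1 minimum (7 RP-high and 11 RP-low cells) and 79 with score limits of 5 and 4. Leaving out each cell in turn, an alternative chosen after seeing the data, gave 1001 to 1130 genes higher, 93 to 159 lower and ribosomal protein medians of 4.34 to 4.74, with a filter of fewer cells.

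In the shared range of gene number the median of tested members turned for the proteasome (-0.47), heat shock (-0.11), heme (-1.26), iron (-1.12), erythroid factor (-2.70), clearance and ubiquitin (-0.83), late erythroid (-0.28) and stress response (-0.52) lists and for globin genes (0.0065), and reached 0 for S phase. Differences of at least 1 in size also turned there for Bnip3l (-2.60), Eif3k (-0.86), Gas5 (-0.81), Ubtf (-0.59), Psma5 (-1.06), Slc25a39 (-0.79), Pcbp1 (-1.43), E2f4 (-2.55), Gfi1b (-1.15), Zfpm1 (-1.83), Gypc (-0.92), Aqp1 (0.73), Ube2d3 (-3.16), Ube2b (-0.83), Map1lc3b (-0.83), Bax (-1.45), Hspa8 (-4.49), Mthfd2 (-1.64) and Rheb (-1.43). Of these, Ube2d3 had not been called, as its sign differed within run code SCP-1706080. With the higher Hba-a1 minimum Pcbp1 was at -0.17. With medians over cells Bnip3l was at -0.16, Hbq1a at -0.035 and Bax at 0. Within run code SCP-1706080 alone Kcnn4 was at 0.33 and Ube2d3 at -0.57. The cause was not tested.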

Other observations

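Of the 2025 tested genes, 10 had every RP-high cell above every RP-low cell, and the 8 besides Tmem14c and Rpsa were chosen for this after their values were seen. Blvrb, a biliverdin reductase, was at 1426 to 2697 RPKM in RP-high cells and at most 1277 RPKM in RP-low cells. Mgst3, a microsomal glutathione transferase, was at 1275.5 to 2815.5 RPKM against at most 1142 RPKM, and Atpif1, the inhibitor of the mitochondrial ATP synthase, at 837 to 1182 RPKM against at most 718 RPKM. Atp5h, a subunit of that synthase, was at 208.5 to 760 RPKM against at most 185 RPKM. Tma7, a gene of the translation machinery, was at 90.4 to 518 RPKM against at most 75.5 RPKM. The others were Rps9, Gm10653 and Rps19-ps3, by its name a pseudogene of Rps19, whose reads were not separated from those of Rps19 here.

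Genes called higher outside the ribosomal proteins had a median transcript length of 1694 bases, and genes called lower one of 2618 bases, against 2073 bases over all tested genes.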
